A study of Mus musculus with 4 samples.

Results

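Cxcl1, Cxcl2, Cxcl3 and their receptor Cxcr2 were followed through the CD45+ hematopoietic cells of the mouse dura mater and brain, 3 days after sham surgery (S3) or photothrombotic injury (PTI, D3). The 4 genes were chosen by name, as the neutrophil-attracting ligands and the receptor they share, and all 4 were listed in each library among 19491 genes listed in any. The cells came from adult C57BL/6J mice. The dura mater and the brain were dissociated with enzymes, and CD45+ cells were taken by flow sorting and sequenced as single cells with 10x Chromium 3′ chemistry. PTI closes vessels by light after a photosensitive dye is given and hits the dura mater, the pia mater and the brain below it. The 4 groups were brain S3, brain D3, dura mater S3 and dura mater D3, and the groups the labels call control are taken here as the sham groups of the study. No group carried an allele or agent beyond the surgery, and the number of mice behind each library is not given in the sources used here. Each group was 1 library, so no test between groups was possible, and no difference below has a replicate check.

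Cxcl1, Cxcl2 and Cxcl3 are small secreted proteins that are held on vessel walls and matrix and lead neutrophils out of the blood. They act through Cxcr2, a G protein-coupled receptor that neutrophils carry in large amounts and lose from the surface once ligand is bound. Macrophages, stromal cells and neutrophils themselves make the ligands when interleukin-1, tumor necrosis factor or microbial products switch on NF-kB, and their mRNAs are short-lived.

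The ligand genes are neighbours on mouse chromosome 5, and the receptor gene lies on chromosome 1. In GRCm38 with the GENCODE annotation, the protein-coding genes on the forward strand were Cxcl3 (ENSMUSG00000029379.10) at chr5:90786103-90789600, Cxcl1 (ENSMUSG00000029380.11) at chr5:90891241-90893115 and Cxcl2 (ENSMUSG00000058427.10) at chr5:90903871-90905938. The gap from Cxcl3 to Cxcl1 was 102 kb and that from Cxcl1 to Cxcl2 was 10.8 kb. Cxcr2 (ENSMUSG00000026180.8) was at chr1:74153989-74161246 on the forward strand. The sequence before each start is shown because the ligands share exact letters there that the receptor's stretch does not hold. The stretches are RefSeq promoter sequence in GRCm38.p6, forward strand, 5′ to 3′, with an NF-kB site (GGAATTTCC) and a TATA box (ATAAAAGG) in capitals.
Cxcl1, chr5:90891135-90891238: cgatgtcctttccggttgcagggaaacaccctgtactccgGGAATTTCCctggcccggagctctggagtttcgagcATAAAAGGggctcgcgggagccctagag
Cxcl2, chr5:90903789-90903869: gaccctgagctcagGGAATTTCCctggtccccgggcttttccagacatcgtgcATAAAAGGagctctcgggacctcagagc
Cxcl3, chr5:90785991-90786099: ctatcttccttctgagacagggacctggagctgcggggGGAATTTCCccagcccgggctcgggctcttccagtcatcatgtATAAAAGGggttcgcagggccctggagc
Cxcr2, chr1:74153884-74153988: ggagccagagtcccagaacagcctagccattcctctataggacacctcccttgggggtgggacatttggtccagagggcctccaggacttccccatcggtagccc

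All 4 genes matched a RefSeq promoter window of 300 bases. Both motifs were searched on both strands of 32851 such windows. The NF-kB letters were in 104 of them (0.317%), the TATA letters in 577 (1.76%), and both in 4 windows (0.0122%), those of Cxcl1, Cxcl2, Cxcl3 and the predicted gene Gm38531. In each ligand the NF-kB letters came first and the TATA letters followed closer to the start. The motifs do not overlap. The Cxcr2 window held neither. A match of letters is a description and not a measured site.

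The ligands are also alike in their transcripts, which bears on how reads were assigned. The longest run of identical bases between a Cxcl2 and a Cxcl3 transcript was 157 bases, against 23 bases between Cxcl1 and either. A read wholly inside the shared run fits both Cxcl2 and Cxcl3. Where the run lies and how such reads were counted were not examined, so the split between these 2 genes is uncertain.

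After filters, 14098 cells were kept, from 2603 in dura mater D3 to 4438 in brain D3, with library medians of 8252 to 14269.5 unique molecular identifiers (UMIs, each a captured mRNA molecule) per cell. The D3 libraries were deeper per cell than the S3 libraries in both tissues. Pairs of libraries shared 3 to 11 cell barcodes. Cell classes were rebuilt by clustering, with the 4 genes left out, and are called by their markers with "-like". Against the tissue labels, the brain libraries held 433 and 627 microglia-like cells and the dura mater libraries 4 and 6. Below, a level is the gene's UMIs per 1000000 UMIs of the cells summed (CPM), in square brackets with an exact Poisson 95% interval, and a ratio is on the log2 scale, D3 over S3 unless stated, with an exact conditional interval in parentheses. A gene was called in a comparison when it had at least 50 UMIs over both groups and differed at least 2-fold. Intervals and the limits for counts of 0 cover counting error only, not the spread between mice. Those of levels and ratios take each UMI as independent, so they leave out the spread between cells too.

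Over all kept cells, the 3 ligands were higher at D3 than at S3 in both tissues, while the receptor was lower at D3 in the brain and slightly higher in the dura mater. Cxcl2 was at 546.9 CPM in brain S3, 1778 CPM in brain D3, 509.5 CPM in dura mater S3 and 1100 CPM in dura mater D3. Its log2 ratio was 1.70 (1.68 to 1.72) in the brain and 1.11 (1.09 to 1.13) in the dura mater. The S3 levels of both tissues were close to each other, and brain D3 lay highest of the 4. Cxcl1 was at 8.41 [7.51 to 9.39], 91.2 [89.0 to 93.4], 9.4 [8.49 to 10.4] and 40.0 [38.1 to 42] CPM in the same order. Its ratios were 3.44 (3.28 to 3.61) in the brain and 2.09 (1.93 to 2.25) in the dura mater. Cxcl3 was at 3.22, 50.7, 1.56 and 3.8 CPM in the same order, and brain D3 stood apart from the other libraries. Cxcr2 was at 98.3, 42.7, 86.8 and 93.2 CPM, with ratios of -1.2 (-1.27 to -1.13) in the brain and 0.10 (0.04 to 0.17) in the dura mater. In such a sum, a change in the share of a cell class and a change of mRNA in its cells cannot be told apart, and neutrophil-like cells without Siglecf were 8.71% of brain S3, 3.4% of brain D3, 10.2% of dura mater S3 and 7.34% of dura mater D3.

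**Figure D1:**
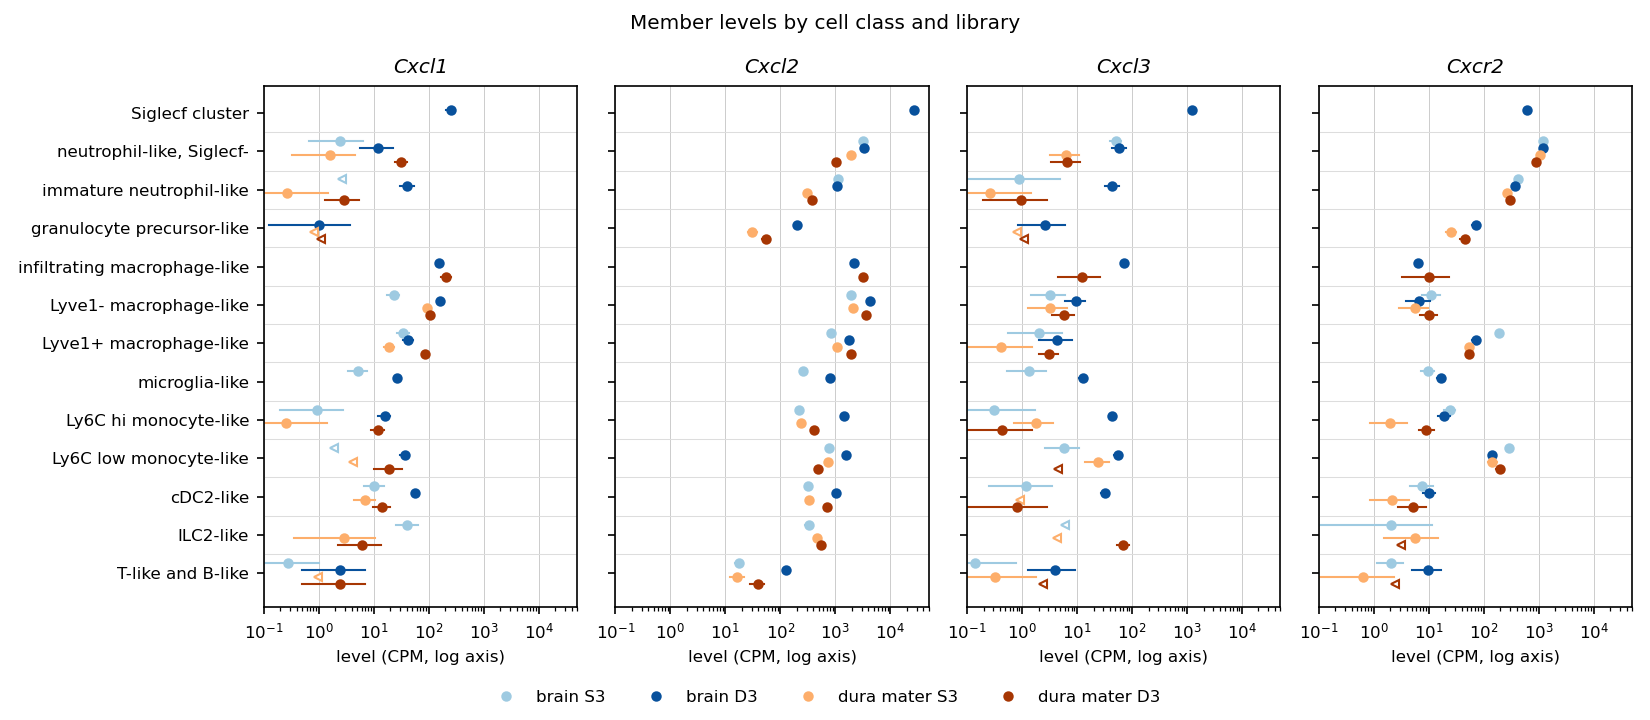
Level of each gene in CPM (log axis) by cell class (rows) and library (colors), for classes of at least 20 cells, with exact Poisson 95% intervals that are cut at the left edge of the axis where they reach below it. Open triangles are 0 UMIs, drawn at the level of 3 counts. Of the classes shown, Cxcr2 lies highest in neutrophil-like cells, and at D3 Cxcl1 lies highest in macrophage classes and, in the brain, in the Siglecf cluster.

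The sum over libraries hides which cells carry each ligand, so the ligands were followed class by class, Cxcl2 first. Neutrophil-like cells, the cells that answer to these ligands, carried Cxcl2 themselves at all 4 places. Without cells that had a UMI of Siglecf, a lectin kept apart here, there were 315 of them in brain S3, 151 in brain D3, 352 in dura mater S3 and 191 in dura mater D3. Cxcl2 was at 3173 [3087 to 3261], 3331 [3208 to 3457], 1939 [1876 to 2003] and 1043 [997 to 1091] CPM in this order. The brain level hardly differed between S3 and D3, and the dura mater level was lower at D3. The ratios were 0.07 (0.00 to 0.14) in the brain and -0.89 (-0.97 to -0.81) in the dura mater. The median gene of the brain comparison was at -0.24, and scaled to the genes' median the Cxcl2 ratio was 0.28. A coarser clustering that joins the Siglecf cluster, described further on, to this class gave 1.33. Brain cells lay above dura mater cells by 0.71 (0.65 to 0.77) at S3 and 1.67 (1.59 to 1.76) at D3.

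A UMI of Cxcl2 was found in 81.0% [76.2 to 85.1] of neutrophil-like cells in brain S3, 86.1% [79.5 to 91.2] in brain D3, 77.8% [73.1 to 82.1] in dura mater S3 and 66.0% [58.8 to 72.7] in dura mater D3. With each cell thinned to 2000 UMIs, the shares were 73.3, 78.8, 65.9 and 43.5%. The order of the 4 libraries was the same before and after thinning. T-like and B-like cells, which should make no Cxcl2, gave 8.43, 20.4, 8.76 and 11.8% of cells with a UMI before thinning. Their median depths were 5169 to 5866 UMIs per cell, against 3901 to 7796 in neutrophil-like cells. Per cell the Cxcl2 level was broad: its median was 1886 CPM in brain S3 and 1396 CPM in brain D3, with 90th percentiles of 8167 and 10676 CPM. In the dura mater the medians were 866.4 CPM at S3 and 226.6 CPM at D3. The summed stress genes of dissociation, such as Fos and Jun, were at 13326 CPM in brain S3 neutrophil-like cells, 7641 in brain D3, 13060 in dura mater S3 and 8349 in dura mater D3, and their part in the Cxcl2 values was not tested.

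Less mature cells of the same lineage carried less Cxcl2. Immature neutrophil-like cells, marked by granule genes such as Ltf and Camp, were at 1137 CPM in brain S3, 1057 in brain D3, 304.9 in dura mater S3 and 375.6 in dura mater D3. The 5% of these cells with the most Cxcl2 held 29.9% of its UMIs in brain S3 and 76% in brain D3. The median immature cell was at 224.9 CPM in brain S3 and 98.7 CPM in brain D3. Granulocyte precursor-like cells, marked by Mpo and Elane, were at 196.9 CPM in brain D3, 30.8 in dura mater S3 and 55.4 in dura mater D3. The level therefore fell in the same order, from neutrophil-like to immature to precursor-like, in the 3 libraries with enough precursor-like cells. Immature cells were below neutrophil-like cells by -1.48, -1.66, -2.67 and -1.47 in brain S3, brain D3, dura mater S3 and dura mater D3. Among genes with enough UMIs, 1 of 3 tested of the 4 was called between D3 and S3 in immature cells of the brain, where 5.86% of all genes were. It was Cxcl3, with 49 UMIs at D3 against 1 at S3, and 73.5% of the 49 were in 1 cell. In immature cells of the dura mater 0 of 2 were called, with 3.33% of all genes.

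Tissue macrophages of the Lyve1+ and Lyve1- classes had more Cxcl2 at D3 than at S3 in both tissues. Lyve1 is a hyaluronan receptor that marks macrophages near vessels and at tissue borders. Lyve1- macrophage-like cells were at 1930 [1879 to 1983] CPM in brain S3, 4206 [4127 to 4287] in brain D3, 2130 [2069 to 2193] in dura mater S3 and 3651 [3586 to 3716] in dura mater D3. The S3 libraries lay close to each other, and both D3 libraries lay above them. The ratios were 1.12 (1.08 to 1.17) in the brain and 0.78 (0.73 to 0.83) in the dura mater, and cells with a UMI went from 61.2 to 84.4% and from 60.1 to 77.4%.

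Lyve1+ macrophage-like cells were at 843.1 [802.5 to 885.2] CPM in brain S3, 1775 [1718 to 1833] in brain D3, 1088 [1059 to 1118] in dura mater S3 and 1952 [1923 to 1980] in dura mater D3. The ratios were 1.07 (0.99 to 1.16) and 0.84 (0.80 to 0.89). This class held cells that a finer clustering set apart with neutrophil markers, called mixed cells here. The neutrophil marker list summed to 38526, 20515, 12446 and 24830 CPM in the whole class and to 784.6, 714.2, 1719 and 918.7 CPM without them, in the order brain S3, brain D3, dura mater S3, dura mater D3. Without mixed cells, Cxcl2 was at 436.8, 1544, 1025 and 2097 CPM, and the ratios were 1.82 (1.67 to 1.98) in the brain and 1.03 (0.98 to 1.08) in the dura mater. The difference between S3 and D3 was larger without these cells in both tissues. Lyve1+ and Lyve1- cells together held 68.1% of the Cxcl2 UMIs of dura mater D3.

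In the injured brain most Cxcl2 UMIs lay in another class. Infiltrating macrophage-like cells, marked by Arg1, Spp1 and Gpnmb, were 1409 cells in brain D3 against 8 in brain S3, 0 in dura mater S3 and 24 in dura mater D3. Their Cxcl2 was at 2191 [2175 to 2207] CPM in brain D3, with a UMI in 86.4% of cells, and held 55.1% of the library's Cxcl2. Per UMI this was below the Lyve1+ and Lyve1- cells of the same library combined, by -0.51 (-0.54 to -0.48). The 24 cells of dura mater D3 were at 3204 [3048 to 3367] CPM. The neutrophil marker list was at 1453 CPM in these brain D3 cells.

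Microglia-like cells, the resident macrophages of the brain, went from 263.6 [249.8 to 277.9] CPM of Cxcl2 at S3 to 799.8 [782.9 to 816.9] CPM at D3, a ratio of 1.60 (1.52 to 1.68). Cells with a UMI went from 25.4 to 56.3%, and from 8.55 to 26.5% after thinning. The median cell was at 0 CPM at S3 and at 59.7 CPM at D3, so the sum rested on the upper part of the cells. In the same cells the neutrophil marker list went from 1382 to 3165 CPM and the infiltrating macrophage list from 2445 to 7929 CPM, and their part in the ratio was not tested. The dissociation stress list went the other way, from 28997 to 15212 CPM. The 3 ligands but not Cxcr2 were called here, 3 of 4 against 7.98% of all genes. The median gene was at -0.18.

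Ly6C hi monocyte-like cells, named after circulating cells that can become macrophages in tissue, were also higher in Cxcl2 at D3 than at S3 in both tissues. They were at 219.8 [203.8 to 236.7] CPM in brain S3, 1408 [1372 to 1445] in brain D3, 238.6 [223.6 to 254.3] in dura mater S3 and 415.2 [397.0 to 434.0] in dura mater D3. The ratios were 2.68 (2.57 to 2.80) in the brain and 0.80 (0.69 to 0.91) in the dura mater, and the difference between tissues was not tested. Among these monocytes 3 of 4 genes were called in the brain, against 6.61% of all genes, and 2 of 3 in the dura mater, against 2.86%. They were the 3 ligands in the brain and Cxcl1 and Cxcr2, not Cxcl2, in the dura mater. The neutrophil marker list was at 3069, 5848, 857 and 5825 CPM in the 4 libraries, and its part in these calls, that of Cxcr2 included, was not tested.

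In Ly6C low monocyte-like cells, Cxcl2 was at 779.9, 1556, 745.9 and 479.6 CPM. Without mixed cells it was at 147.6, 1052, 77.1 and 205.9 CPM, with ratios of 2.83 (2.49 to 3.20) in the brain and 1.42 (0.77 to 2.09) in the dura mater. With mixed cells the dura mater ratio was -0.64 (-0.84 to -0.44), so the direction there turned with these cells. A single cell held 60.2% of the Cxcl2 UMIs of this class in dura mater S3. Dendritic cells of the cDC2-like class, which present antigen to helper T cells, were at 318.7, 1030, 335.1 and 713.1 CPM, with ratios of 1.69 (1.59 to 1.80) and 1.09 (0.98 to 1.2). The cDC1-like class was at 122, 339.3, 72.1 and 341.6 CPM. ILC2-like cells were at 326.2 CPM in brain S3, 470.5 in dura mater S3 and 537.7 in dura mater D3. T-like and B-like cells together were at 17.9, 128.6, 16.5 and 38.5 CPM, and 67.1% of the brain D3 UMIs of these were in 1 cell.

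By level, the order of classes for Cxcl2 changed with injury. At S3, neutrophil-like cells led the brain, followed by Lyve1- macrophage-like and immature neutrophil-like cells, and these 3 did not overlap in their intervals. In dura mater S3 Lyve1- macrophage-like cells led at 2130 CPM and neutrophil-like cells followed at 1939 CPM. In brain D3 the order was the Siglecf cluster described further on, then Lyve1- macrophage-like cells, neutrophil-like cells, infiltrating and Lyve1+ macrophage-like cells, with no overlap between neighbours. In dura mater D3 Lyve1- macrophage-like cells led, the intervals of infiltrating macrophage-like and Siglecf+ cells overlapped below them, and neutrophil-like cells lay under Lyve1+ macrophage-like cells. Neutrophil-like cells without Siglecf held 24.8% of all Cxcl2 UMIs of brain S3, 2.17% of brain D3, 17.2% of dura mater S3 and 4.28% of dura mater D3.

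**Figure D2:**
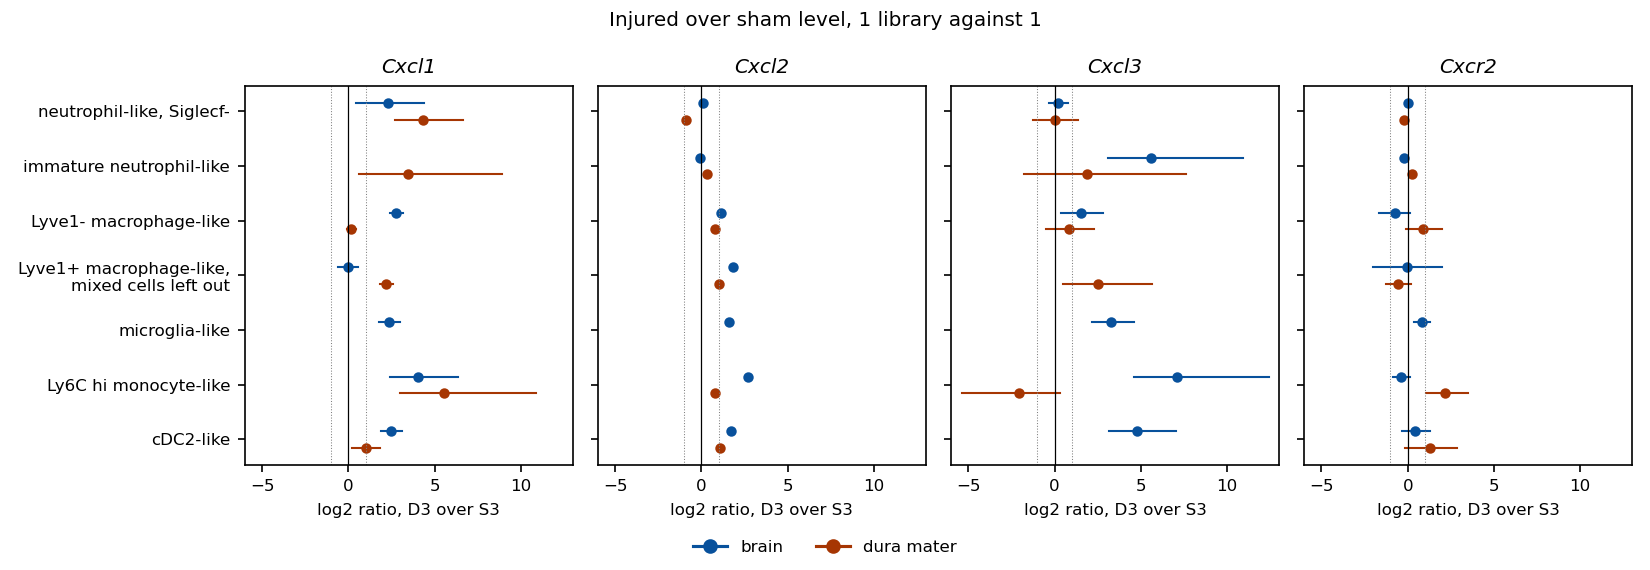
Log2 ratio of the level at D3 over that at S3 (x axis) for each gene in 7 cell classes of brain and dura mater, 1 library against 1, with exact conditional 95% intervals for counting error. Dotted lines mark 2-fold either way, classes with 0 UMIs on a side have no point, and the Cxcl2 points lie right of 0 in all classes but neutrophil-like cells of the dura mater and immature neutrophil-like cells of the brain.

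Cxcl1 differed from Cxcl2 in that neutrophil-like cells held little of it. Their sums were 4 UMIs in brain S3, 10 in brain D3, 3 in dura mater S3 and 58 in dura mater D3, or 2.48 [0.677 to 6.36], 11.9 [5.73 to 22.0], 1.59 [0.328 to 4.65] and 31.7 [24.1 to 41.0] CPM. The dura mater D3 value rested on few cells, as 44.8% of its UMIs were in 1 cell, and in brain D3 60.0% were in 1 cell. Of the 4 genes, 0 of 3 with enough UMIs were called in neutrophil-like cells of the brain, where 7.24% of all genes were called. In the dura mater 1 of 3 was, namely Cxcl1 at 4.32 (2.70 to 6.64), where 17.7% of all genes were.

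Macrophage classes carried most Cxcl1 at D3. With the Lyve1+ and Lyve1- classes joined it was higher at D3 in both tissues, at 1.95 (1.67 to 2.24) in the brain and 1.09 (0.91 to 1.28) in the dura mater. Lyve1- macrophage-like cells were at 23 [17.7 to 29.4] CPM in brain S3, 157.8 [142.7 to 174.0] in brain D3, 94.4 [81.8 to 108.3] in dura mater S3 and 106 [95.3 to 117.7] in dura mater D3. The brain S3 value was the low one, and the dura mater values overlapped. The ratios were 2.78 (2.39 to 3.18) in the brain and 0.17 (-0.09 to 0.42) in the dura mater, where 29.6% of the S3 UMIs were in 1 cell. Among Lyve1- macrophage-like cells 2 of 2 genes tested were called in the brain, Cxcl1 and Cxcl2, against 1.95% of all genes, and 0 of 2 in the dura mater, against 0.949%.

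In Lyve1+ macrophage-like cells the larger Cxcl1 ratio was that of the dura mater, and differences between tissues were not tested. They were at 33.8 [26.1 to 43.1] CPM in brain S3, 42.2 [33.8 to 52.0] in brain D3, 18.8 [15.1 to 23.0] in dura mater S3 and 83.9 [78.1 to 90] in dura mater D3. The brain intervals overlapped, and those of the dura mater lay far apart. The ratios were 0.32 (-0.16 to 0.80) in the brain and 2.16 (1.85 to 2.49) in the dura mater, and without mixed cells -0.02 and 2.20 (1.85 to 2.56). The dura mater ratio was 1.42 with cells thinned and 1.06 when a coarser clustering joined the Lyve1 classes. Cells with a Cxcl1 UMI went from 5.09 to 13.9% in the dura mater and from 11.7 to 13.6% in the brain. In T-like and B-like cells the share was at most 1.61%. These Lyve1+ cells held 48.3% of the Cxcl1 UMIs of dura mater D3. Of the 4 genes, 2 of 3 were called in Lyve1+ macrophage-like cells of the brain, against 3.12% of all genes, and 1 of 3, Cxcl1, in the dura mater, against 2.3%. The brain calls were Cxcl2 and Cxcr2, and without mixed cells Cxcr2 was at -0.06 there while Cxcl2 in the dura mater was at 1.03, past 2-fold, so both counts depend on these cells.

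Infiltrating macrophage-like cells of brain D3 were at 155.6 [151.4 to 160.0] CPM of Cxcl1 and held 76.4% of that library's 6601 UMIs. They overlapped the Lyve1- macrophage-like cells of brain D3 in their intervals. A Cxcl1 UMI was seen in 20.7% of them, so most of these cells had none at their median depth of 21608 UMIs. In microglia-like cells Cxcl1 went from 5.19 to 26.8 CPM, at 2.37 (1.79 to 2.99), with 51.9% of the S3 UMIs and 36.4% of the D3 UMIs in 1 cell each. In Ly6C hi monocyte-like cells it was at 0.945 CPM in brain S3 (3 UMIs) against 15.7 CPM in brain D3, and at 0.253 CPM in dura mater S3 (1 UMI) against 11.9 CPM in dura mater D3. The ratios were 4.05 (2.44 to 6.37) and 5.55 (3.02 to 10.88), wide because of the low S3 counts. In cDC2-like cells the ratios were 2.48 in the brain and 1.01 in the dura mater, and proliferating cells were at 25.6 CPM in brain D3 and 44.5 CPM in dura mater D3.

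By level, the order for Cxcl1 in brain S3 was ILC2-like cells at 41 [25.1 to 63.4] CPM, then Lyve1+ and Lyve1- macrophage-like cells, with overlap between neighbours. The ILC2-like value came from 20 UMIs in 2 of 67 cells. In brain D3 the Siglecf cluster led, Lyve1- and infiltrating macrophage-like cells followed and overlapped, and cDC2-like cells at 57.4 [51.3 to 64.1] CPM came before Lyve1+ macrophage-like cells, which they overlapped. The place of the Siglecf cluster rested on few cells, as 5% of its cells held 70.3% of its Cxcl1 UMIs. In dura mater S3 Lyve1- macrophage-like cells led alone among named classes. In dura mater D3 the order was infiltrating, Lyve1- and Lyve1+ macrophage-like cells, with no overlap between neighbours. The infiltrating class had 24 cells there, and the 5% of them with the most Cxcl1 held 48.5% of its UMIs. Its place thus rested on few cells, and the intervals do not cover the spread between cells.

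Cxcl3 was the ligand with the fewest UMIs, 121 in brain S3, 3671 in brain D3, 65 in dura mater S3 and 154 in dura mater D3. In brain S3, 66.9% of them were in neutrophil-like cells, which were at 50.3 [40.0 to 62.5] CPM there and 58.5 [43.3 to 77.4] CPM in brain D3. In the dura mater the same class was at 6.36 CPM at S3 and 6.56 CPM at D3, with 12 UMIs each. Brain cells lay above dura mater cells by 2.98 (2.10 to 3.99) at S3 and 3.16 (2.22 to 4.20) at D3. The D3 over S3 ratios were 0.22 (-0.32 to 0.75) in the brain and 0.04 (-1.24 to 1.33) in the dura mater. The brain ratio was 0.75 (0.28 to 1.23) with the Siglecf+ cells of these clusters counted in, 0.88 with cells thinned and 1.52 when cells were assigned by a marker gate in place of clusters. Whether Cxcl3 differed with injury in the brain's neutrophil-like cells thus depended on which cells were counted and at what depth.

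At D3 the brain's Cxcl3 came from other cells. Infiltrating macrophage-like cells held 61.9% of it, at 70.2 [67.4 to 73.2] CPM with a UMI in 20.1% of cells. They were above the Lyve1+ and Lyve1- cells of the same library by 3.29 (2.80 to 3.84), unlike for Cxcl2, where they were below. In brain Ly6C hi monocyte-like cells it went from 1 UMI, 0.315 CPM, to 43.9 [37.6 to 50.8] CPM, with 38.6% of the D3 UMIs in 1 cell. In cDC2-like cells of the brain it went from 1.19 to 32.1 CPM and in microglia-like cells from 1.35 to 13 CPM. Lyve1+ macrophage-like cells stayed low, at 2.08, 4.36, 0.412 and 3.11 CPM, and Lyve1- cells at 3.23, 9.42, 3.25 and 5.72 CPM. In dura mater D3, 67 of 154 UMIs were in ILC2-like cells, and 98.5% of these were in 1 cell. In dura mater S3, Ly6C low monocyte-like cells had the highest level at 23.7 [13.8 to 38] CPM, from 17 UMIs of which 94.1% were in 1 cell. In brain D3, below the Siglecf cluster, infiltrating macrophage-like, neutrophil-like and Ly6C low monocyte-like cells lay between 55.7 and 70.2 CPM, and the interval of neutrophil-like cells overlapped both others. Without mixed cells the Ly6C low monocyte-like cells were at 29.4 [21.6 to 38.9] CPM, from 48 UMIs in place of 167.

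The highest Cxcl2 and Cxcl3 levels were in a small cluster of the injured brain that is named here after Siglecf. It held 156 cells, 137 of them in brain D3, 1 in brain S3 and 9 in each dura mater library, and 82 had a UMI of Siglecf. Siglecf is best known from eosinophils, but Epx, Prg2 and Il5ra of the eosinophil list were at 0 UMIs in it and Ccr3 at 2. All 10 genes of the neutrophil list were detected in the brain D3 cells, summing to 34024 CPM, against 285337 CPM in neutrophil-like cells there. Csf3r, the receptor of granulocyte colony-stimulating factor, had a UMI in 96.4% of these cells and S100a8, a neutrophil alarmin, in 86.1%. Csf3r was at 1397 CPM against 1320 in neutrophil-like cells there, but S100a8 at 9444 CPM against 90618. Retnlg and Stfa2l1 of the same list had a UMI in 17.5 and 14.6% of the cells, against 98.7 and 44.4%. Cd300lf of the eosinophil list had one in 66.4%, against 76.8% of neutrophil-like cells. The median depth of the cluster, 3128 UMIs, was low, 0.219 of that of the libraries its cells came from. The cluster is left without a cell type name because no neutrophil marker was among its top 10 genes. It is called the Siglecf cluster here. The 4 genes were not used to form it, though Cxcl3 and Cxcl2 were among the top 10 genes by fold, with Siglecf, Igfbp6, Il23a, Acod1, Gpc3, Csf1, Il1rn and Tnf.

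In its 137 brain D3 cells, Cxcl2 was at 26480 [26002 to 26965] CPM with a UMI in 98.5% of cells, and the median cell was at 21459 CPM. This small cluster held 9.06% of the Cxcl2 and 15% of the Cxcl3 of the library. Cxcl3 was at 1251 [1149 to 1360] CPM with a UMI in 49.6% of cells, and Cxcl1 at 252.1 [207.4 to 303.5] CPM with a UMI in 13.9%. The 5% of the cluster's cells with the most Cxcl1 held 70.3% of its UMIs, so that level rested on few cells. Cxcr2 was at 613.1 [542.2 to 690.8] CPM with a UMI in 67.9%. Since Cxcl2 and Cxcl3 share a run of bases, the split between them is uncertain here too. The 9 cells of dura mater S3 summed to 984 Cxcl2 UMIs, 24961 CPM, of which 42.3% were in 1 cell, and the 9 of dura mater D3 were at 7469 CPM.

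Siglecf+ cells by their own UMI, in this cluster or among neutrophil-like cells, numbered 17 in brain S3, 84 in brain D3, 10 in dura mater S3 and 26 in dura mater D3. In brain D3 their Cxcl2 was at 19957 [19478 to 20444] CPM, above neutrophil-like cells of that library by 2.58 (2.52 to 2.65), where the median gene was at 0.42. Their Cxcl3 was above by 3.70 (3.25 to 4.17) and their Cxcl1 by 4.59 (3.65 to 5.69), but their Cxcr2 was below, by -0.70 (-0.91 to -0.50). The Cxcl1 difference rested on few cells. The 5% of Siglecf+ cells with the most Cxcl1 held 69.5% of its UMIs there, and neutrophil-like cells had 10 Cxcl1 UMIs in all. With the marker gate the Cxcr2 difference was -0.03. The ligands were higher and the receptor lower in the same group of cells. Between Siglecf+ and neutrophil-like cells 3 of 4 genes were called, against 37.5% of all genes, and 3 of 4 also for the whole Siglecf cluster, against 46.3%. The whole cluster gave 4.40 for Cxcl1, 2.99 for Cxcl2, 4.42 for Cxcl3 and -0.98 for Cxcr2. Siglecf+ cells of brain D3 had a median of 3342 UMIs against 4894 in neutrophil-like cells.

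Siglecf+ cells of the other libraries, most of them outside the Siglecf cluster, did not have such ligand levels. In brain S3 they were at 2608 CPM of Cxcl2 with 0 UMIs of Cxcl1 and Cxcl3, in dura mater S3 at 3536 CPM of Cxcl2, and in dura mater D3 at 3159 [2892 to 3443] CPM. Their Cxcr2 was at 1133, 1221 and 1378 CPM in these 3 libraries and at 743.6 [653.6 to 842.6] CPM in brain D3. At D3, brain cells lay above dura mater cells by 2.66 (2.53 to 2.79) for Cxcl2 and below by -0.89 (-1.16 to -0.62) for Cxcr2. In brain S3 17 of 17 Siglecf+ cells were in the neutrophil-like cluster, in dura mater S3 9 of 10 and in dura mater D3 19 of 26. Most Siglecf+ cells of brain D3 were in the Siglecf cluster, 74 of 84, so the libraries are compared over cells of unlike clusters. Inside the cluster in brain D3, the 74 cells with a Siglecf UMI and the 63 without differed by -0.34 (-0.39 to -0.29) for Cxcl2, 2.07 (1.30 to 2.94) for Cxcl1, -1.01 (-1.26 to -0.76) for Cxcl3 and 0.45 (0.08 to 0.83) for Cxcr2. Cxcl2 and Cxcl3 were higher in its cells where no Siglecf UMI was caught, and Cxcl1 and Cxcr2 in those with such a UMI. For Cxcl1 this rested on few cells, as 5% of the cluster's cells held 70.3% of its UMIs.

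**Figure D3:**
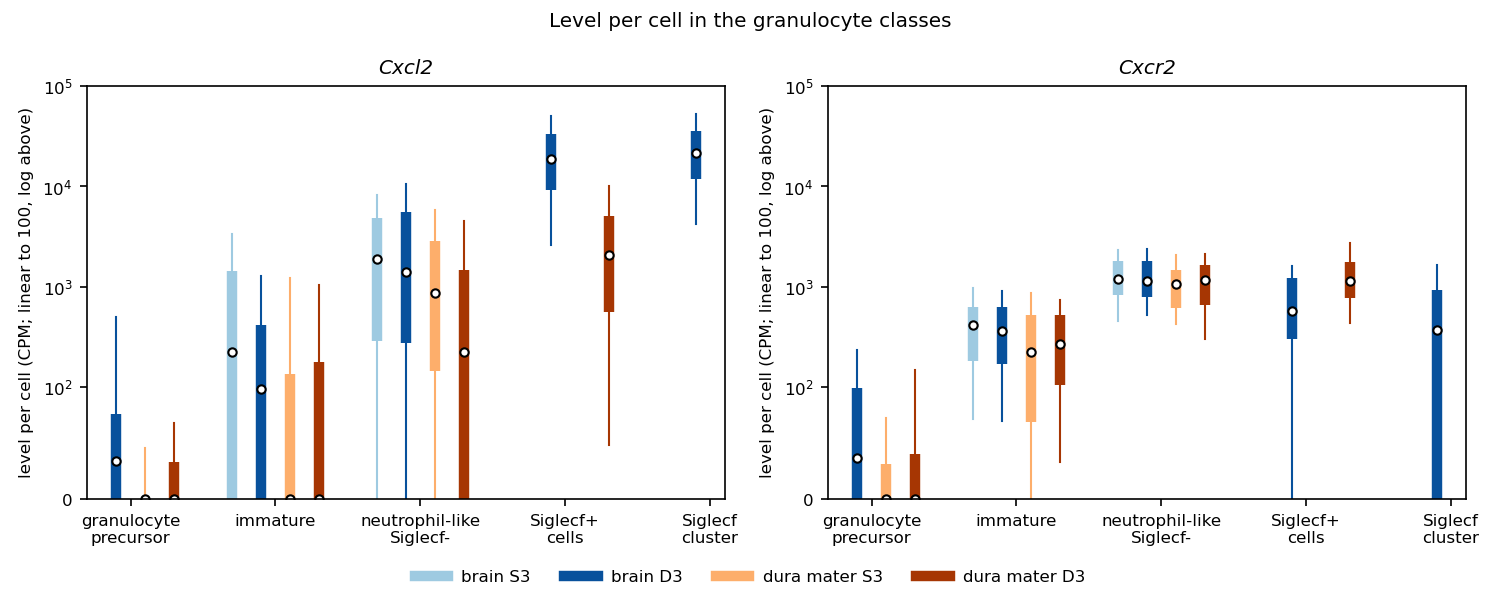
Cxcl2 and Cxcr2 per cell in the granulocyte classes, as CPM of the cell (linear to 100, log above), by library. White points are medians, bars the interquartile range and lines the 10th to 90th percentiles, for groups of at least 20 cells, and the median Cxcl2 of the Siglecf cluster of brain D3, 21459 CPM, lies above the 90th percentile of neutrophil-like cells, while its Cxcr2 lies below their median.

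The receptor followed the neutrophil lineage and hardly differed with injury. In neutrophil-like cells Cxcr2 was at 1209 [1155 to 1264] CPM in brain S3, 1208 [1135 to 1285] in brain D3, 1060 [1014 to 1107] in dura mater S3 and 896.1 [853.2 to 940.6] in dura mater D3. The brain values were equal within counting error, and dura mater D3 was the lowest of the 4. The ratios were 0.00 (-0.11 to 0.11) in the brain and -0.24 (-0.34 to -0.15) in the dura mater. The brain value became 0.21 when scaled to the median of genes. The dura mater value turned to 0.09 with cells thinned to one depth and to 0.08 as a mean over cells, and to 0.13 without the cell filter, so its direction is not settled and the cause was not tested. The deepest 10% of cells held 17.5% of the class's UMIs at S3 and 28.9% at D3. The median cell was at 1205, 1153, 1063 and 1166 CPM. A Cxcr2 UMI was found in 98.4, 98.7, 98.6 and 94.2% of these cells, against at most 2.43% of T-like and B-like cells.

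Cxcr2 was lower in earlier stages of the lineage. Immature neutrophil-like cells were at 426 [388.5 to 466.1] CPM in brain S3, 369.7 [334.8 to 407.1] in brain D3, 261.1 [245.2 to 277.8] in dura mater S3 and 307.6 [288.5 to 327.7] in dura mater D3. They lay below neutrophil-like cells by -1.5, -1.71, -2.02 and -1.54. Granulocyte precursor-like cells lay below neutrophil-like cells by -4.03 in brain D3, -5.38 in dura mater S3 and -4.31 in dura mater D3. In these 3 libraries the order, precursor-like under immature under neutrophil-like, held with no overlap of intervals. The D3 over S3 ratio in immature cells was -0.20 (-0.40 to -0.01) in the brain and 0.24 (0.11 to 0.37) in the dura mater.

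Outside the lineage, the Cxcr2 of the Lyve1+ macrophage-like and Ly6C low monocyte-like classes lay mostly in mixed cells. In Lyve1+ macrophage-like cells it was at 194.1 [174.9 to 214.9] CPM in brain S3, 73.7 [62.4 to 86.4] in brain D3, 53.6 [47.3 to 60.5] in dura mater S3 and 55.3 [50.7 to 60.3] in dura mater D3, and the brain ratio was -1.40 (-1.68 to -1.12). Without mixed cells the levels were 5.3, 5.1, 8.63 and 5.94 CPM, and the brain ratio was -0.06 (-2.03 to 1.99). The called difference of Cxcr2 in Lyve1+ cells of the brain was gone without these cells. In Ly6C low monocyte-like cells the levels were 285.1, 140, 145 and 202.8 CPM, and 10.7, 2.45, 14.9 and 0 CPM without mixed cells. The mixed cells held 22.9, 18.2, 11.1 and 16.8% of the Cxcr2 UMIs of the 4 libraries, with median depths of 15632 to 26215 UMIs per cell. Infiltrating macrophage-like cells of brain D3 were at 6.55 CPM and microglia-like cells at 9.62 CPM at S3 and 16.9 CPM at D3. T-like and B-like cells gave 2.07 CPM in brain S3 and 9.58 [4.95 to 16.7] CPM in brain D3, so Cxcr2 in infiltrating macrophage-like cells was not above this background and that in microglia-like cells overlapped it at D3. In Ly6C hi monocyte-like cells Cxcr2 was at 24.6, 19.2, 2.02 and 9.12 CPM, and its dura mater ratio of 2.17 (1.07 to 3.47) rested on 8 UMIs at S3 and 43 at D3.

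**Figure D4:**
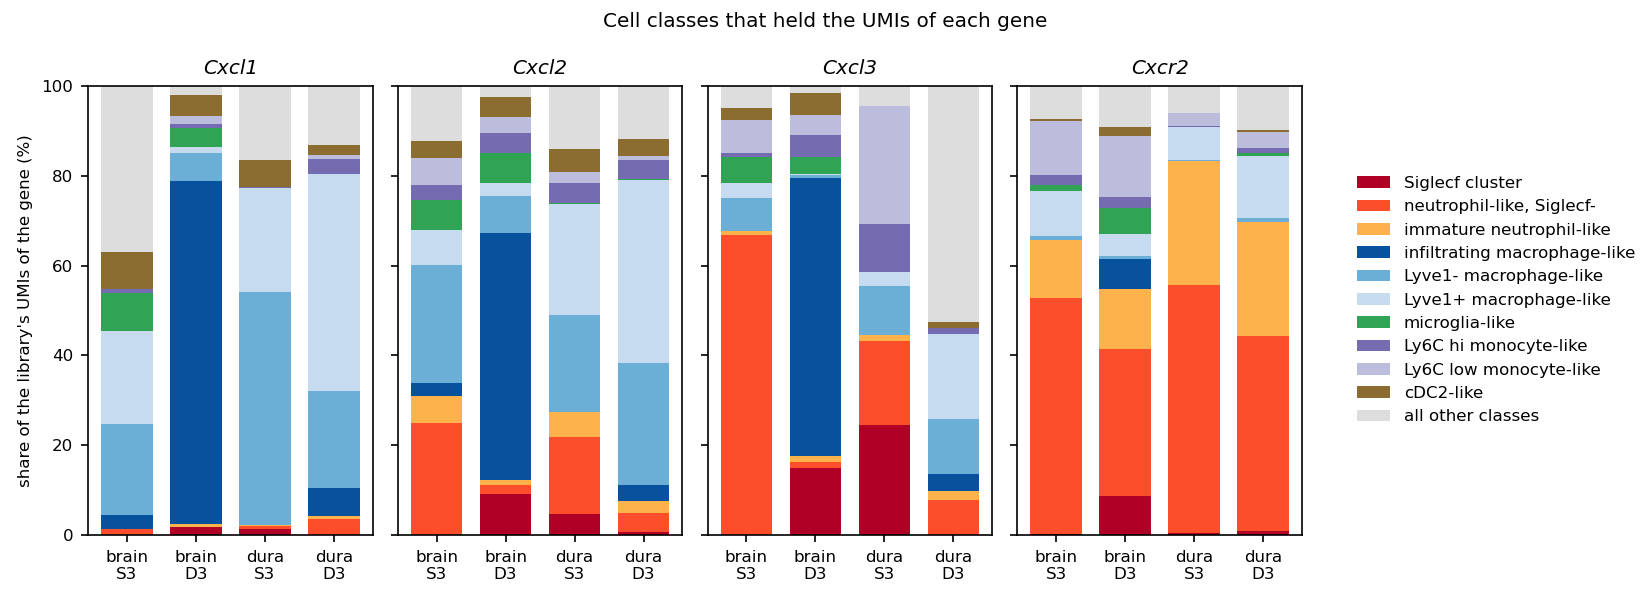
Share of each library's UMIs of a gene (%, y axis) that lay in each cell class (colors), by library. Infiltrating macrophage-like cells hold 76.4% of Cxcl1, 55.1% of Cxcl2 and 61.9% of Cxcl3 in brain D3, while neutrophil-like cells hold 52.7% of Cxcr2 in brain S3 and 32.7% in brain D3, and Siglecf+ cells of the neutrophil-like clusters are in "all other classes".

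Ligand and receptor were often in the same cell. In neutrophil-like cells, 252 of 315 (80.0%) had UMIs of both Cxcl2 and Cxcr2 in brain S3, 128 of 151 (84.8%) in brain D3, 270 of 352 (76.7%) in dura mater S3 and 119 of 191 (62.3%) in dura mater D3. As nearly all these cells had Cxcr2, the share with both followed that with Cxcl2. In immature neutrophil-like cells the shares were 64.9, 57.3, 34.5 and 45.1%. In the Siglecf cluster of brain D3, 92 of 137 cells (67.2%) had both, 43 had Cxcl2 without Cxcr2 and 1 had Cxcr2 without Cxcl2. Its cells without both mostly had no Cxcr2 UMI. Their cluster was shallower in brain D3, at a median of 3015 UMIs per cell against 4894 in neutrophil-like cells. The part of depth in this was not tested.

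Other genes of the pathway were read from lists as counts past 2-fold, beside the median over all genes. Of the other Cxcr2 ligands Cxcl5, Ppbp, Cxcl15 and Mif, Mif was the one that reached 50 UMIs in any of 13 comparisons. Mif, a cytokine that also binds Cxcr2, was at 2.47 in neutrophil-like cells of the brain and 3.47 in those of the dura mater, but it has near-identical gene copies and is uncertain. The genes downstream of Cxcr2, such as the G protein subunit Gnai2, the arrestin Arrb2 and the GTPase Rac2, had 0 of 8 past 2-fold in 12 of the 13 comparisons. In immature cells of the brain 1 of 8 was lower, where 5.86% of all genes were past 2-fold. Over all genes, the shares were 0.949 to 17.7% for D3 over S3. They were 37.5% for Siglecf+ cells and 46.3% for the Siglecf cluster over neutrophil-like cells, so 0 of 8 says little in most comparisons. In neutrophil-like cells the median of the downstream genes was -0.06 in the brain, beside -0.24 over all genes, and -0.40 in the dura mater, beside -0.08.

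Of the other chemoattractant receptors in neutrophil-like cells, 1 of 8 was past 2-fold in the brain, where 7.24% of all genes were, Cxcr4 at -1.28, a receptor that holds neutrophils in the marrow. In the dura mater 1 of 9 was, Cxcr1 at 1.5, the close relative of Cxcr2, a share below the 17.7% of all genes there. Of the inducers of the ligands and their NF-kB and mRNA decay regulators, 2 of 8 were lower in the brain, the NF-kB brake Tnfaip3 at -1.16 and Zfp36 at -1.10, a protein that speeds mRNA decay, and 0 of 8 differed in the dura mater. The dissociation stress list had 6 of 12 genes lower in the brain, with a median of -1.04 beside -0.24 over all genes, and 1 of 11 higher in the dura mater, with a median of -0.33 beside -0.08.

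In Siglecf+ over neutrophil-like cells of brain D3, 8 of 9 genes of the inducer list were at least 2-fold higher, where 28.1% of all genes were, with a median of 1.79 beside 0.42. Tnf, tumor necrosis factor, was at 112.3 CPM in neutrophil-like cells and 2757 CPM in Siglecf+ cells, a difference of 4.62. Il1a went from 11.9 to 380.9 CPM and Il1b from 5328 to 17566 CPM, differences of 4.99 and 1.72, both interleukin-1 cytokines that induce the ligands. The NF-kB feedback genes Tnfaip3 at 2.96 and Nfkbia at 2.64 were higher too, and Zc3h12a, an RNase that cuts such mRNAs, was at 0.70. Of the other receptors, Cxcr4 at 1.56 and Ptafr at 1.5 were higher and Fpr1 at -1.44 was lower, among 8. Over all genes, 37.5% were past 2-fold either way here, so the receptors did not stand out. Csf3r was at -0.02. The stress list had 2 of 10 genes higher in Siglecf+ cells, with a median of 0.38 beside 0.42. For the whole Siglecf cluster the stress list had 6 of 12 higher, where 35.8% of all genes were, with a median of 0.83 beside 0.60. It summed to 12587 CPM there against 7641 CPM in neutrophil-like cells, and its part in the ligand values was not tested.

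Between D3 and S3 in the macrophage and monocyte classes, where 0.949 to 7.98% of all genes were past 2-fold, the inducer list had 0 to 2 genes past it. In Lyve1+ macrophage-like cells of the dura mater 1 of 9 was higher, Il1a at 1.83, with a list median of 0.13 beside -0.10 over all genes. In those of the brain 1 of 9 was, Tnf at 1.12, and Il1b at 1.18 in Lyve1- cells of the brain. In brain Ly6C hi monocyte-like cells Il1b at 1.41 and Il1a at 1.34 were higher, and 7 of 12 stress genes were lower. In microglia-like cells 0 of 9 inducers were past 2-fold, with a median of 0.06 beside -0.18 over all genes, and Fpr1, the receptor of formylated peptides, was higher at 2.33. The ligands themselves, at 1.60 or more in these microglia-like cells, lay above the range of that list.

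Over 64 groups of a library and a class with at least 50 cells, the genes most like each of the 4 in log2(CPM + 1) were found among 9297 genes, as a description, since the groups share libraries. Cxcr2 had the closest neighbours, Asprv1 at a Pearson correlation of 0.949, then Il1f9, Mmp9, G0s2 and Dhrs9. For Cxcl2 they were Rab20 (0.853), Fth1 (0.853), Nlrp3 (0.850), Il1b and Il1rn. Cxcl1 was nearest to Rab7b (0.779), C3ar1 (0.767), Creb5 (0.754), Cxcl16 (0.746) and Cttnbp2nl (0.742). Cxcl3 was nearest to Bnip3 (0.707), followed by Tgm2, Igfbp6, Fth1 and Cxcl2 (0.675). None of the ligands had the receptor among its 5 nearest genes.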

How the data were processed

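The 4 deposited tables, 1 for each library, hold natural log values per gene and cell. Per the labels and the study's methods, the authors mapped reads to mm10 with Cell Ranger 3.1.0 and normalized them with Seurat 3.1.0, dividing each cell's UMIs by their sum, scaling and taking the natural log of the value plus 1. Whole UMIs were recovered from 100% of the deposited values, within 1e-06, and all sums use these.

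The cells used had between 1000 and 6000 detected genes, with mitochondrial UMIs making up no more than 7%. Scrublet's own threshold marked 0 to 3 cells per library as doublets, so the highest-ranked cells were removed instead, at 0.8% per 1000 barcodes, 99 to 281 barcodes per library. Cells of all libraries were clustered with Seurat 5.3.0 (2500 variable genes, 30 components, 20 neighbours, resolution 0.6), leaving out the 4 genes and the list genes, 44 in all. Of 30 clusters, 28 are given a name here, the Siglecf cluster by its own rule and the rest from 28 marker lists. Siglecf+ means at least 1 Siglecf UMI in a neutrophil-named cluster or in the Siglecf cluster, which no list named and where at least 25% of cells had one. That rule, the mixed cells and the alternatives that use them were set after the data were seen.

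With 1 library per group there is no test, p-value or standard error. Intervals are exact Poisson and Clopper-Pearson intervals at 95%, and a count of 0 is set at 3 counts for a bound. Python 3.11.15, scipy 1.17.1, scanpy 1.11.5 and R 4.3.3 were used, and the scripts were tested on simulated data. Genes named are the 4 genes in each class of at least 20 cells, the genes of 5 lists (other ligands, other receptors, downstream partners, inducers and regulators, dissociation stress), the 5 nearest genes and cell type markers. The genes and lists were chosen with earlier results of these data known. Alternatives were other filters, doublet rules, clusterings, a marker gate, thinning to 2000 UMIs, means over cells, scaling to the median gene and subtraction of the level in T-like and B-like cells.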

Additional observations from a re-analysis of the deposited data

Results flagged for a closer look

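In 5 cases within a named class the log2 ratio of D3 over S3 had opposite signs in brain and dura mater with both counting intervals off 0, each tissue with 1 library per condition. The difference between tissues was not tested in any of them. How often all genes would meet the same rule was not counted, so the 5 cases are a description only. Cxcl2 in Ly6C low monocyte-like cells was at 1.0 in the brain and -0.64 in the dura mater, and without mixed cells at 2.83 and 1.42. Cxcr2 in the same class was at -1.03 in the brain and 0.48 in the dura mater, with 4 and 0 UMIs left at D3 without mixed cells. Cxcr2 in immature neutrophil-like cells was at -0.20 in the brain and 0.24 in the dura mater. Cxcl2 in plasmacytoid dendritic cell-like cells was at 4.10 in the brain and -2.53 in the dura mater, from 7, 161, 59 and 7 UMIs in brain S3, brain D3, dura mater S3 and dura mater D3. Cxcr2 in proliferating cells was at 2.41 in the brain and -1.62 in the dura mater, from 10, 55, 17 and 4 UMIs.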

How the results depend on the processing

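Of 96 values recomputed for 9 ratios, 46 stayed within the counting interval of the reported value, 47 moved beyond it and 3 did so with a change of sign. No paired analysis was possible because each condition had 1 library, and no replicate could be left out. These 3 were all of Cxcr2 in neutrophil-like cells of the dura mater (-0.24), which was 0.13 without the cell filter, 0.09 thinned and 0.08 as a mean over cells. It was -0.14 with the marker gate and -0.09 scaled to the median gene. Resolution 0.3 merges the Siglecf cluster with neutrophil-like cells and the Lyve1 classes with each other. It gave 1.33 for Cxcl2, 2.82 for Cxcl3 and -0.20 for Cxcr2 in neutrophil-like cells of the brain, 0.77 for Cxcl2 and 1.06 for Cxcl1 in Lyve1+ cells of the dura mater, and 1.33 for Cxcl2 in Siglecf+ cells. For the other moves the cause was not tested.

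Cxcl2 in neutrophil-like cells of the brain (0.07) was 0.34 with all variable genes, 0.38 with the gate, 0.26 thinned, 0.34 as a mean over cells and 0.28 scaled. Cxcl3 there (0.22) was -0.08 without the filter, within its interval, and 1.52 with the gate and 0.88 thinned, and Cxcr2 (0.00) was -0.16 without the filter, -0.25 with the gate and 0.21 scaled. Cxcl2 in Lyve1+ cells of the dura mater (0.84) was 0.97 without the filter, 0.70 with doublets kept, 0.96 at resolution 1.2, 0.75 with the gate, 0.94 scaled and 1.03 without mixed cells. Cxcl1 there (2.16) was 1.57 with doublets kept and 1.42 thinned. Cxcl2 in microglia-like cells (1.60) was 1.28 without the filter, 1.70 with doublets kept, 1.74 at resolution 1.2, 1.70 with all variable genes, 1.49 with the gate, 1.82 thinned, 1.45 with the T-like and B-like level subtracted, 1.79 as a mean over cells and 1.77 scaled. Cxcl2 in Siglecf+ over neutrophil-like cells (2.58) was 2.70 with doublets kept, 2.66 at resolution 1.2, 2.36 with all variable genes, 2.32 with the gate, 2.50 thinned, 2.46 as a mean over cells, 2.31 scaled and 2.99 for the whole cluster. Cxcr2 there (-0.70) was -0.03 with the gate, -0.97 scaled, -1.01 with at least 2 Siglecf UMIs and -0.98 for the whole cluster. The whole-cluster and mixed-cell settings were chosen after seeing the data.

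With no minimum of UMIs, the share of genes past 2-fold in the brain was 26.4% in neutrophil-like, 33% in immature neutrophil-like, 23.6% in Lyve1+, 22.7% in Lyve1-, 26.7% in Ly6C hi monocyte-like and 24.5% in microglia-like cells. In the dura mater it was 42.8, 28.4, 16.1, 15.9 and 22.1% in the first 5 of these classes.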
